A study of Mus musculus with 14 samples.

Results

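The peak lists of this ChIP-seq study were called on mm10 with an added contig, tig00005009, and every region called on that contig in any of the 7 lists was taken. By unique start and end there were 568 such regions of 351655 in all lists together. They comprised 149 H3K27ac regions after vehicle, 247 H3K27ac regions after doxorubicin, 58 H3K9me3 regions after vehicle, 92 H3K9me3 regions after doxorubicin, 20 p53 regions and 2 regions of an HA ChIP from cells without a tag. The input list had 0 regions on the contig, against 2236 in the whole list. Regions were called from position 16510 to position 5326586, a span of 5.31 Mb.

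E14 mouse embryonic stem cells, an established line, were given either the DNA-damaging drug doxorubicin, which traps topoisomerase II on broken DNA, or its vehicle DMSO. The dose was 1 µM in the doxorubicin histone groups and the input, and 0 µM in the vehicle groups. For every group the labels give 6 h of exposure, 6 h without drug, collection at 12 h and fixation in 1% formaldehyde for 10 min. p53 carrying an HA tag was precipitated through that tag, and the same antibody was used on cells without it as a control. Their titles do not give the treatment, so p53 is not compared between treatments, and the input came from doxorubicin-treated cells. Each group had 2 libraries and 1 deposited list called on both, so no comparison has a replicate check and no p-value is given.

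H3K27ac marks active promoters and enhancers, whereas H3K9me3 marks heterochromatin and is dense over silenced repeats. p53 is a transcription factor that accumulates after DNA damage and binds sites built from copies of a short element with the core CATG. Mouse Dux genes, which encode a homeobox factor that activates genes of early cleavage embryos, lie in a tandem array on chromosome 10.

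The sources used here do not give the origin of the contig, so its place was estimated from the peaks. Summits on the contig and on each chromosome were joined into ordered chains, in either orientation. Offsets between both coordinates had to lie within 100000 bp of the best-matching offset for that chromosome and orientation. Drift of the offset by up to 300 bp from pair to pair carried a small cost that rose with the drift. A larger jump cost 3 pairs. Of the 566 contig regions in the histone and p53 lists, 238 were chained to regions of mm10 chromosome 10 in reverse orientation, with 3 jumps and a score of 188. The chain ranked next, on chromosome 4 in reverse, held 187 pairs, needed 20 jumps and scored 91.3. A simpler search with 1 offset and a tolerance of 200 bp put chromosome 10 in reverse first for vehicle H3K27ac, with 35 matches against 28 for the next sequence, and for p53, with 6 against 4. In the other 3 lists that search put another chromosome first, so the placement rests on the chain, which was added after the files had been seen and the simpler search had been run. The Duxf3 interval and all gene names below depend on it.

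**Figure D1:**
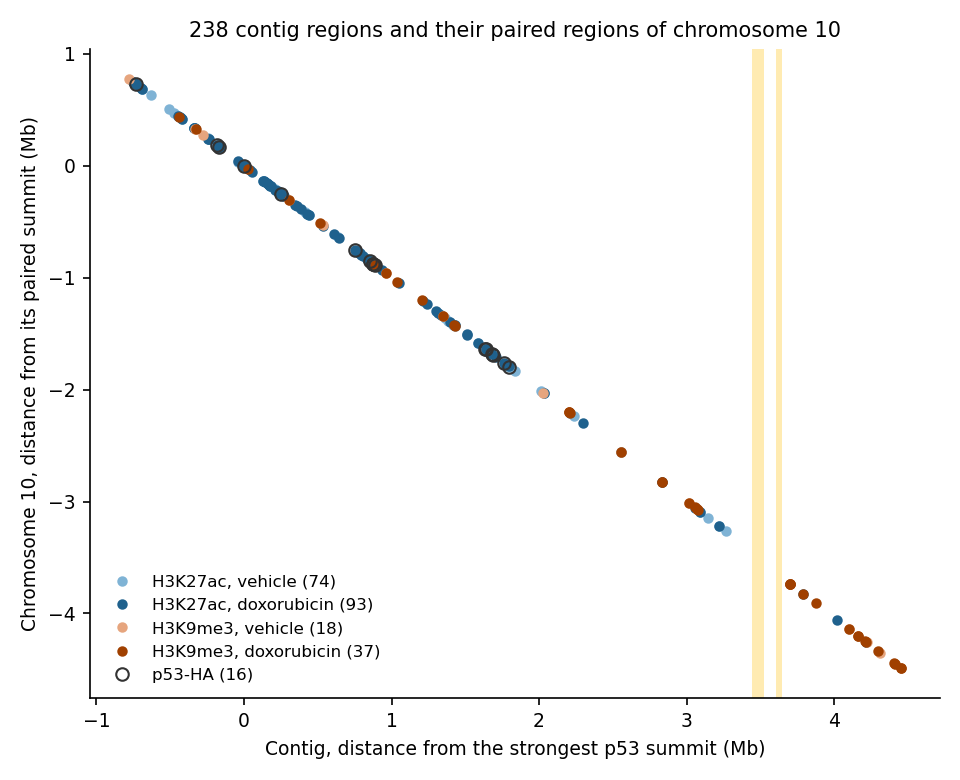
Chained regions of the contig (horizontal axis, Mb from the strongest p53 summit) and of chromosome 10 (vertical axis, Mb from the summit paired with it), with each point a pair and colours giving the list. The 238 pairs lie along falling lines that leave a gap at the shaded spans, where evenly spaced H3K27ac regions were called on the contig.

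The chain covered positions 17400 to 5250780 of the contig and chr10:57098490-62367352, in 4 blocks of 17, 113, 83 and 25 pairs. The third block ended at contig position 4065161, paired with chr10:58322939 beside Lims1, a focal adhesion adaptor gene. The fourth block began at contig position 4495913, paired with chr10:57853453. Between both places the contig measured 430752 bp and chromosome 10 measured 469486 bp. RefSeq lists 7 genes in that interval of chromosome 10, among them Gcc2, which encodes a golgin of the trans-Golgi network, and Duxf3 at chr10:58229505-58233089. The contig itself has no annotation or sequence in the files used here, so genes named below are those of the paired chromosome 10 region.

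Paired regions were of like height on both sequences. The ratio of contig pileup to chromosome 10 pileup had a median of 1.00 over the 238 pairs and ran from 0.50 to 2.00. How reads that align to both sequences were assigned is not stated in the labels or headers, and its part in the peak heights was not tested. The paired stretch of chromosome 10 held 142 vehicle and 195 doxorubicin H3K27ac regions and 20 p53 regions, against 149, 247 and 20 on the contig. H3K9me3 was less alike, with 38 vehicle and 60 doxorubicin regions on chromosome 10 against 57 and 89 in the chained span of the contig.

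In the interval that holds Duxf3, the lists differed between the contig and chromosome 10. Between the flanking pairs, with regions at those pairs included, the contig had 31 doxorubicin H3K27ac regions and chromosome 10 had 2. H3K9me3 regions numbered 17 after vehicle and 25 after doxorubicin on the contig, and 1 and 1 on chromosome 10. p53 had 0 regions on either sequence there. Within 50000 bp of Duxf3 the lists held a single region, an H3K27ac region after doxorubicin at chr10:58231919-58232654, inside the gene interval, with a pileup of 11 fragments and a fold enrichment of 3.45. The bases upstream of the annotated start of Duxf3 are shown because that single region lies in this gene and the core of the p53 element can be looked for in them. The letters give the minus strand of chr10:58233090-58233339 (mm10, from RefSeq, GRCm38.p6), with capitals marking CATG, which reads the same on both strands.
Duxf3 promoter: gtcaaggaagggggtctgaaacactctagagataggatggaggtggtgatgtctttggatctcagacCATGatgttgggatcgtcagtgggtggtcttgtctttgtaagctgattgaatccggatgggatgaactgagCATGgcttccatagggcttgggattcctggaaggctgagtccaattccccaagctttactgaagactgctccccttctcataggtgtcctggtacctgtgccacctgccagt
CATG occurs 2 times in these 250 bases, and 53.9% of 32851 RefSeq promoters of that length hold it at least once, so the match describes the window and no more.

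**Figure D2:**
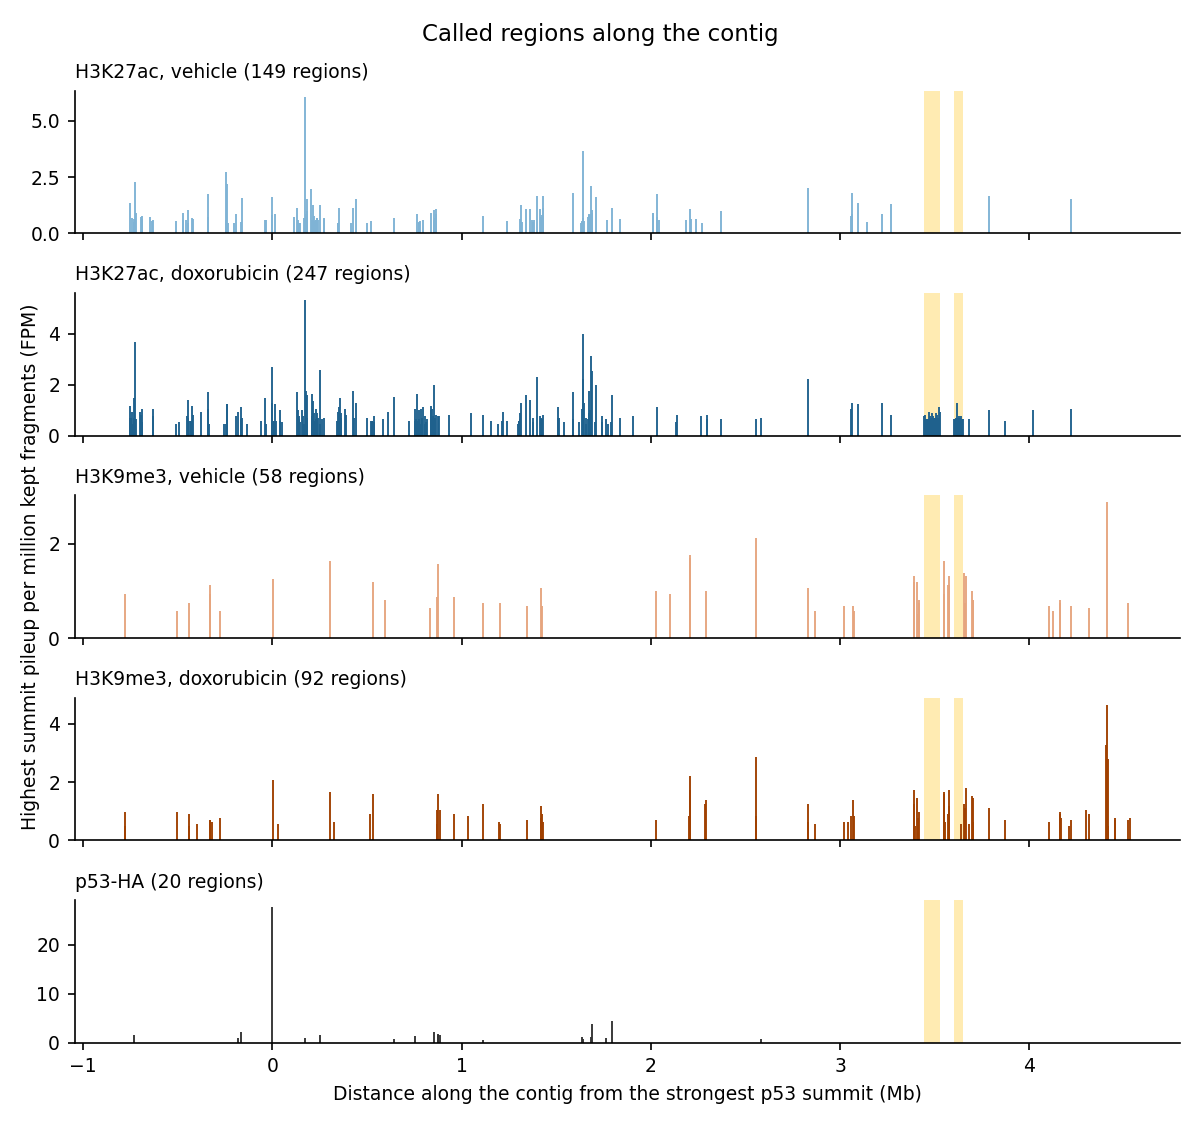
Regions along the contig in 5 lists (horizontal axis, Mb from the strongest p53 summit), with bar height the highest summit pileup in fragments per 1000000 kept fragments (FPM) and yellow spans marking the evenly spaced H3K27ac regions. H3K27ac and p53 regions crowd the left side of the contig and H3K9me3 regions the right.

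The marks were unevenly spread along the contig. Its first 2.5 Mb held 124 of 149 vehicle and 188 of 247 doxorubicin H3K27ac regions, and 17 of 20 p53 regions. The same stretch held 19 of 58 vehicle and 30 of 92 doxorubicin H3K9me3 regions. H3K27ac density over the contig was 28.1 regions per Mb after vehicle and 46.5 after doxorubicin, ranks 15 and 13 among the contig, 19 autosomes and X. H3K9me3 density was 10.9 and 17.3 regions per Mb, the lowest of those 21 sequences in both lists. These ranks set the contig against whole chromosomes. The paired stretch of chromosome 10 held fewer H3K9me3 regions still, 38 and 60 against 57 and 89 in the chained span. For p53 the density was 3.77 regions per Mb, rank 20 of 21, above X alone. An H3K27ac region overlapped an H3K9me3 region in 8 of 149 cases after vehicle (5.37%) and in 11 of 247 after doxorubicin (4.45%), against 8.95% and 9.07% over all regions of those lists.

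Doxorubicin H3K27ac regions formed a series of 28 evenly spaced units on the contig. A unit is 1 region, or several within 1000 bp of each other, and a series is a run of at least 5 units whose centres lie 4000 to 6000 bp apart. This rule was chosen after the spacing had been seen. The first run had 18 units from 4239973 to 4323814 and the second had 10 units from 4399844 to 4445159. Spacing was 4858 ± 253 bp (SD, 17 gaps) in the first run and 4915 ± 231 bp (SD, 9 gaps) in the second, or 4878 ± 242 bp over all 26 gaps. Both runs lie inside the interval whose chromosome 10 counterpart holds Duxf3.

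None of the 29 regions in these units had an H3K27ac counterpart after vehicle. The vehicle list had 0 regions inside either run, and its nearest regions lay 174530 bp and 136603 bp away. Over the genome, 46.5% of doxorubicin H3K27ac regions had no vehicle counterpart. The vehicle list was the deeper one, with 20647895 kept fragments against 17036528 after doxorubicin, and its lowest listed pileup was 9 fragments, or 0.436 FPM.

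The units were low and close to one another in height. Their pileups ran from 11 to 22 fragments with a median of 12, which is 0.704 FPM. The lowest unit reached 0.646 FPM, which is 1.48 times the lowest listed vehicle level, and the median unit was at 1.62 times that level. Whether vehicle signal lay just under its cutoff at these places was not tested. Fold enrichment over the genome-wide background ran from 3.45 to 6.61, and −log10 q from 3.20 to 12.1. The highest unit, at 4414539 to 4415259, reached 1.29 FPM. Of the 28 units, 8 had a −log10 q of at least 5, 13 had a fold enrichment of at least 4 and 2 reached 1 FPM. When both lists were reduced to equal numbers of top regions, 20 of the 28 remained. The region over Duxf3 on chromosome 10, with its pileup of 11, equals the lowest of these units.

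The same search over the other sequences gave no run as long. Its spacing range was set around the spacing already seen on the contig, so series spaced outside that range could not form a run. The counts therefore compare only runs with spacing in that range. They do not show whether long series of another spacing exist elsewhere. In the doxorubicin H3K27ac list it found 108 runs, and the longest away from the contig had 7 units. The vehicle H3K27ac list had 63 runs, none on the contig, with 7 units at most. Of 106 runs elsewhere in the doxorubicin list, 9 had a spacing SD no larger than 242 bp, and the median SD of those 106 was 545 bp. Runs elsewhere had at most 7 units, so each SD rests on few gaps and compares poorly with that over 26 gaps.

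H3K9me3 regions flanked the runs, and few were called inside them. The 60000 bp before the first run held 6 regions after vehicle and 9 after doxorubicin, the 76029 bp between the runs held 6 and 10, and the 60000 bp after the second run held 7 and 7. Inside the first run there were 0 in both lists, and inside the second 0 after vehicle and 1 after doxorubicin, with a pileup of 8. The runs span 83842 and 45316 bp, and the contig as a whole had 10.9 and 17.3 H3K9me3 regions per Mb. Few regions would fall in the runs at that density. The stretches beside and between the runs were denser in H3K9me3 regions than the contig as a whole. Beside those stretches the counts inside the runs were low, and whether that is a depletion was not tested. Between the runs the H3K9me3 regions had a median pileup of 1.13 FPM after vehicle and 1.08 after doxorubicin, against 0.844 and 0.903 over the whole contig. Before the first run the medians were 1.00 and 0.903 FPM, and after the second 0.813 and 1.25 FPM. The p53, untagged and input lists had 0 regions in either run, and the nearest p53 region lay 861452 bp away. Absence from a list says only that no region passed the cutoff of the peak caller there, because the lists hold no values outside called regions.

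**Figure D3:**
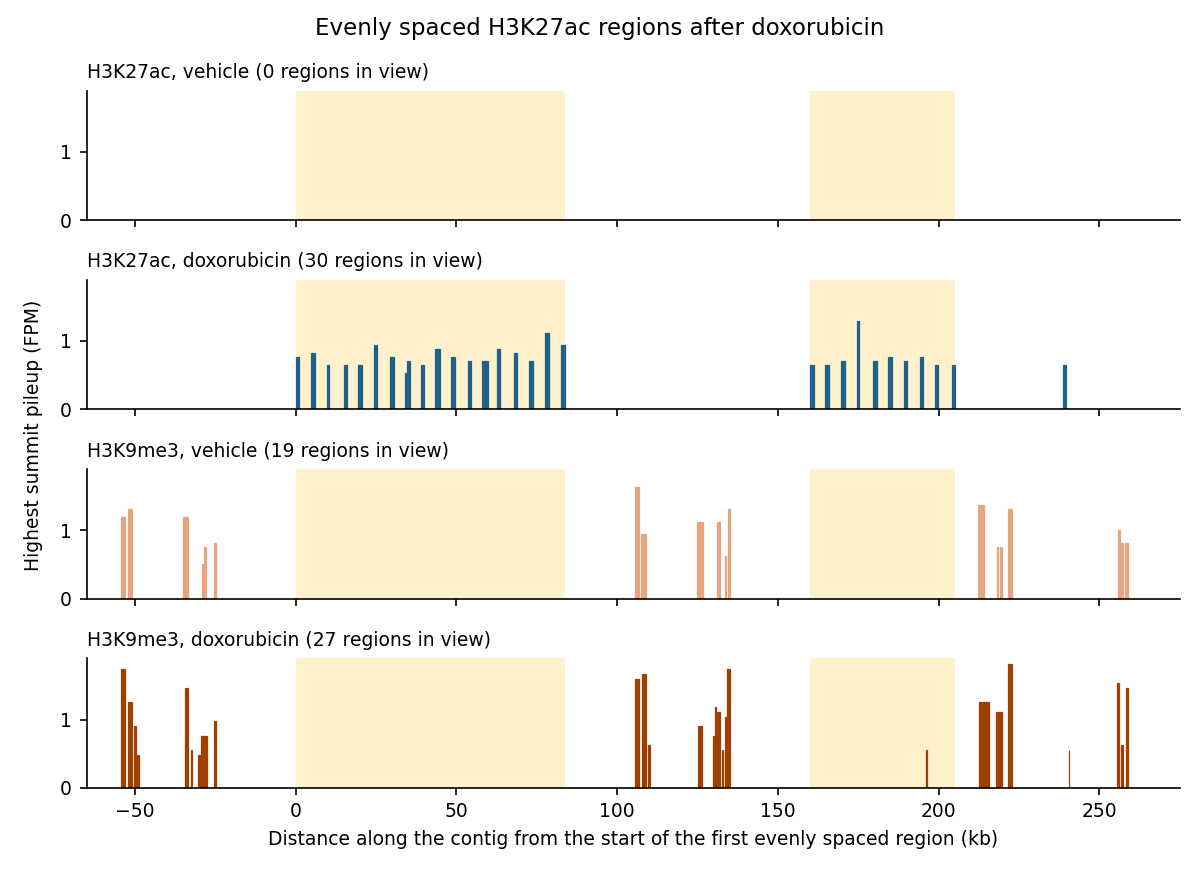
Histone regions around the evenly spaced series (horizontal axis, kb from the start of its first region), with bars at the position and length of each region, bar height the highest summit pileup in FPM, and yellow spans marking both runs. The 29 doxorubicin H3K27ac regions fill the yellow spans, the vehicle H3K27ac panel is empty, and H3K9me3 bars stand on either side.

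Over the whole contig, 143 of the 247 doxorubicin H3K27ac regions had no vehicle counterpart (57.9%, 95% Wilson interval 51.7 to 63.9, counting error only), against 46.5% over all regions. Without the 29 regions of the series the share was 114 of 218, or 52.3%. In the other direction, 45 of 149 vehicle regions had no doxorubicin counterpart (30.2%), against 28.8% of all. With both lists cut to equal numbers of top regions, the contig kept 148 doxorubicin and 149 vehicle regions. Of these, 64 were doxorubicin-only and 63 vehicle-only. Lists of near-equal length leave near-equal numbers without a counterpart, so this setting does not show what the excess of doxorubicin regions depended on.

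Among the regions of 1 treatment alone, those of highest fold enrichment had the following values. A doxorubicin-only region at 1152194 to 1152929, paired with a place in Adamts14, a metalloproteinase gene, had a pileup of 25 and a fold enrichment of 7.48. Another at 629387 to 630871 in Macroh2a2, which encodes a histone variant, had a pileup of 19 and covers a p53 region. The vehicle-only region of highest fold enrichment, at 2225342 to 2226306 in the long non-coding gene Gm51802, had a pileup of 34 and a fold enrichment of 9.50. Of 37 doxorubicin-only contig regions with a chained partner, 31 had a partner that was doxorubicin-only as well, and of 18 such vehicle-only regions 16 had a vehicle-only partner. Of 56 chained doxorubicin regions with a vehicle counterpart, 51 had a partner with one too. Chaining joined only regions of the same list, and the assignment of reads that align to both sequences is not stated. These counts therefore do not test whether both sequences were in the same state.

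H3K27ac regions present in both lists formed 95 pairs. The median log2 ratio of doxorubicin over vehicle, on the FPM scale, was 0.18 on the contig and 0.16 over all 53618 pairs of the genome. It was −0.0036 when fold enrichment was used, 0.02 when the genome-wide median was taken as 0, and 0.32 when regions within 1000 bp were merged, so its direction depends on the scale. At least 1.5-fold higher after doxorubicin were 25 pairs (26.3%, background 25.9%), and at least 1.5-fold lower were 7 (7.37%, background 10.6%). These shares are near those of the genome.

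Nodal, Ddit4 and Hk1 held some of the highest H3K27ac regions of the contig. The vehicle region at 964989 to 971537, paired with Nodal, which encodes a signalling ligand of early embryos, had a pileup of 125 and a fold enrichment of 34.2. Its doxorubicin counterpart at 964284 to 973042 had a pileup of 91 and a fold enrichment of 26.5. At 2433990 to 2437259, paired with Ddit4, a stress-induced inhibitor of mTOR signalling and a known p53 target, the pileup was 76 after vehicle and 68 after doxorubicin, which at the depth of each list is 3.68 and 3.99 FPM. Both places thus had high values in both treatments. In Hk1, the hexokinase gene, the region at 68588 to 71033 had a pileup of 47 after vehicle, and that at 68560 to 71593 had 63 after doxorubicin.

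The 5 lowest ratios lay at places on both sides of the contig. At 552404 to 556118, in the long non-coding gene Gm51765, the pileup was 56 after vehicle and 21 after doxorubicin, a log2 ratio of −1.14. The next region of the same gene, at 556463 to 558992, had 45 and 21, a log2 ratio of −0.82. At 633518 to 635535 in Macroh2a2 the values were 32 and 12, a log2 ratio of −1.14. At 4581762 to 4582567, 15013 bp from the pseudogene Gm5777, they were 34 and 17, a log2 ratio of −0.72. The pair beside Lims1, at 4064947 to 4065443, had 27 and 14, a log2 ratio of −0.67. Of the 5 highest ratios, 3 lay at p53 regions and are given below. The other 2 were at 757301 to 758325 in Npffr1, a neuropeptide receptor gene, with pileups of 12 and 25 and a log2 ratio of 1.34, and 5868 bp from Nodal at 973627 to 975374, with 15 and 30 and a log2 ratio of 1.28.

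**Figure D4:**
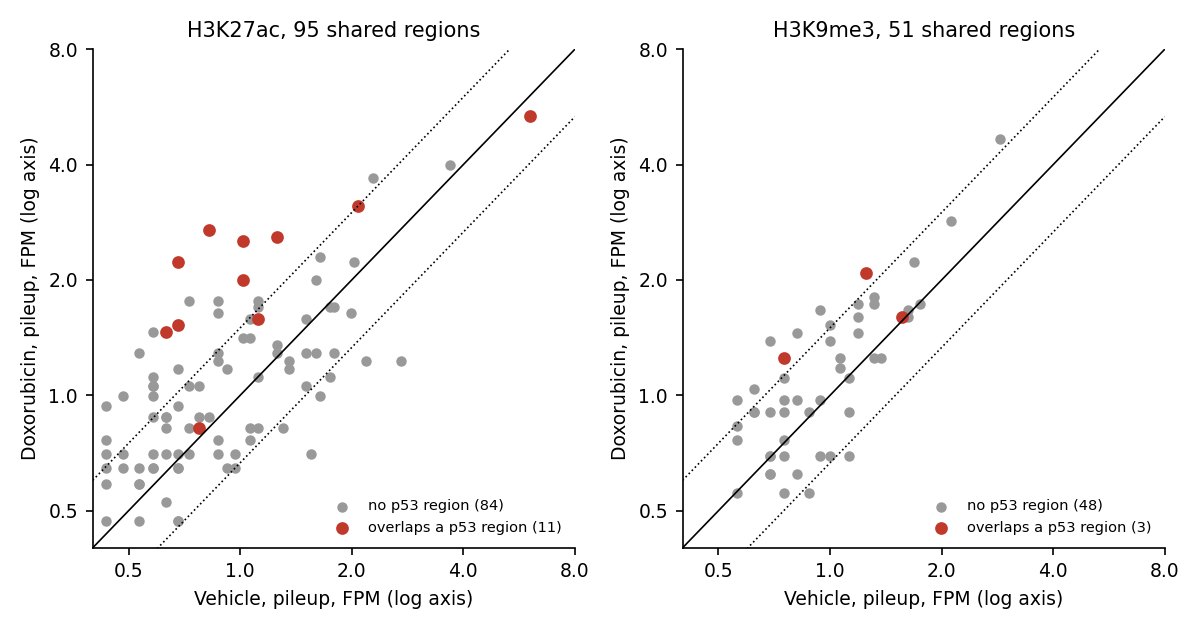
Regions present in both treatments, with pileup in FPM after vehicle (horizontal axis) and doxorubicin (vertical axis), both on log axes, a solid line of equality and dotted lines at 1.5-fold. Of the 11 H3K27ac pairs at p53 regions (red), 10 lie above equality, and the 51 H3K9me3 pairs lie closer to the line.

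For H3K9me3, 36 of 92 doxorubicin regions had no vehicle counterpart (39.1%, background 34.3%) and 5 of 58 vehicle regions had no doxorubicin counterpart (8.62%, background 15.6%). At equal numbers of top regions, 15 of 59 doxorubicin and 17 of 58 vehicle regions had no counterpart. Lists of near-equal length again make such counts alike, so they do not show what the difference depended on. The 51 pairs had a median log2 ratio of 0.26, below the 0.34 over all 47376 pairs, and of −0.09 when the genome-wide median was taken as 0. At least 1.5-fold higher were 9 pairs (17.6%, background 28.4%) and at least 1.5-fold lower were 2 (3.92%, background 2.81%).

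The H3K9me3 region of highest fold enrichment lay near the right end of the contig, at 5204410 to 5211677, paired with the long non-coding gene Gm40652. It had a pileup of 46 and a fold enrichment of 15.3 after vehicle, and the highest of the regions over it after doxorubicin had 67 and 23.7. A region at 3353173 to 3355273 in Sh3rf3 followed, with pileups of 34 after vehicle and 41 after doxorubicin. The highest ratio was at 3864335 to 3865571 in Ccdc138, with 11 and 20 and a log2 ratio of 1.01. A pair at 4347404 to 4348870, between the runs of evenly spaced H3K27ac regions, had 15 and 24 and a log2 ratio of 0.83. Of regions in 1 treatment alone, the doxorubicin H3K9me3 region of highest fold enrichment, at 4370523 to 4370876 between the runs, had a pileup of 17 and a fold enrichment of 6.28, and the vehicle one, at 2895664 to 2896341, had a pileup of 15. The lowest ratio of a pair, −0.70, was at 467859 to 468679 in Col13a1, a transmembrane collagen gene, with 18 and 10.

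The 20 p53 regions lay between 63486 and 3378521 and none lay further right. Their fold enrichment over the input ran from 3.22 to 132 with a median of 7.52, the same to 3 digits as over all 11282 p53 regions. One region stood far above the others. At 795962 to 797621 the summit held 1256 fragments, or 27.8 FPM, with a fold enrichment of 132 that ranked 76 of 11282. Counted from the start of the contig it is the 4th p53 region.

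The strongest region carried both histone marks in both treatments. Its H3K27ac pileup was 17 after vehicle and 46 after doxorubicin, or 0.823 and 2.70 FPM, a log2 ratio of 1.71. Its H3K9me3 pileup was 20 after vehicle and 30 after doxorubicin, or 1.25 and 2.08 FPM, a log2 ratio of 0.74. The untagged list had no region within 812661 bp of it. Its partner at chr10:61588182-61589805 had a fold enrichment of 153 and 0.94 times the pileup of the contig region. That place lies between genes, 5391 bp from the interval of Lrrc20. The doxorubicin H3K27ac region there, at chr10:61588158-61590015, lies 5280 bp from Npffr1.

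Other p53 regions of high fold enrichment lay in or near genes. The one at 2485206 to 2485830, ranked 3 by fold enrichment, lay 2442 bp from Dnajb12, a co-chaperone gene, had a fold enrichment of 21.7 and, over the p53 region itself, H3K27ac pileups of 19 after vehicle and 43 after doxorubicin, a log2 ratio of 1.46. Tied after it, with a fold enrichment of 12.5 each, were a region at 1649992 to 1650420 in Slc29a3, a nucleoside transporter gene, and one at 629758 to 630210 in Macroh2a2. The first of that pair had H3K27ac pileups of 21 and 34, and the other had an H3K27ac region after doxorubicin alone, with a pileup of 19.

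Weaker p53 regions lay in or near further genes. The one at 63486 to 63916 in Hk1 had a fold enrichment of 6.45 and H3K27ac pileups of 13 after vehicle and 25 after doxorubicin, a log2 ratio of 1.22. The one at 1048870 to 1049205 in Pald1 had a fold enrichment of 8.94 and pileups of 26 and 44, a log2 ratio of 1.04. At 2479358 to 2479704, 1252 bp from the long non-coding gene Gm40673, the fold enrichment was 7.26 and the H3K27ac pileups were 43 and 53, a log2 ratio of 0.58. H3K27ac after doxorubicin alone lay over the p53 region at 614176 to 614591 in Macroh2a2, with a pileup of 16, and over that at 1549363 to 1549751, 4820 bp from the netrin receptor gene Unc5b, with a pileup of 18.

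p53 regions also stood beside the highest H3K27ac regions. The one at 969482 to 969763, with a fold enrichment of 5.59, lay inside the Nodal H3K27ac region and was the only one of 11 with a lower H3K27ac level after doxorubicin, at 125 and 91 fragments and a log2 ratio of −0.18. A pair of p53 regions flanked Ddit4. The one at 2438902 to 2439217, 982 bp from the gene, had H3K27ac pileups of 14 after vehicle and 38 after doxorubicin, a log2 ratio of 1.72. The other, at 2430951 to 2431213 and 4595 bp from the gene, overlapped an H3K27ac region after vehicle alone, with a pileup of 11.

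Further p53 regions clustered at Slc29a3 and its neighbourhood, as far as position 1681949. Those at 1671415 and 1673555 each overlapped an H3K27ac region called after doxorubicin alone, both with a pileup of 13. They share 1 H3K9me3 region per list, with 25 fragments (1.56 FPM) after vehicle and 23 (1.60 FPM) after doxorubicin, a log2 ratio of 0.03. The one at 1681215 was the only p53 region with no H3K27ac region in either list, and it overlapped an H3K9me3 region after doxorubicin with a pileup of 15. The weakest, at 1909302 to 1909616 with a fold enrichment of 3.22, coincided with a region of the untagged list whose fold enrichment was 4.01, higher than its own. That place, which falls in Cdh23 by its nearest chained pair 63255 bp away, was also called in all 4 histone lists. The other untagged region, at 1610282 to 1610578, lay 39414 bp from the nearest p53 region.

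H3K27ac overlapped 12 of the 20 p53 regions after vehicle (60.0%, 95% Wilson interval 38.7 to 78.1) and 18 after doxorubicin (90.0%, interval 69.9 to 97.2). Both intervals cover counting error only and treat neighbouring regions as independent. Over all p53 regions of the genome the shares were 42.9% and 72.3%. By region, 11 overlapped H3K27ac in both treatments, 7 after doxorubicin alone, 1 after vehicle alone and 1 in neither. H3K9me3 overlapped 4 after vehicle (20.0%, background 20.0%) and 5 after doxorubicin (25.0%, background 25.2%). The untagged list overlapped 1 (background 3.7%) and the input list 0 (background 1.76%).

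At the 11 p53 regions with H3K27ac in both lists, the log2 ratio had a median of 1.04 (0.56 with the mean pileup over summits) and ran from −0.18 to 1.72, and 7 of 11 were at least 1.5-fold higher after doxorubicin (63.6%, background over all pairs 25.9%). The other 84 H3K27ac pairs of the contig had a median of 0.15. In the whole genome the medians were 0.99 at 4835 pairs with p53 and 0.11 at 48783 without, so the contig resembled the genome in this respect. Of the 143 doxorubicin-only H3K27ac regions of the contig, 7 overlapped a p53 region (4.90%, background 6.02%), as did 1 of the 36 doxorubicin-only H3K9me3 regions (2.78%, background 2.09%). Since the treatment of the p53 libraries is not given and each value is from 1 pooled list, the difference has no replicate check.

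**Figure D5:**
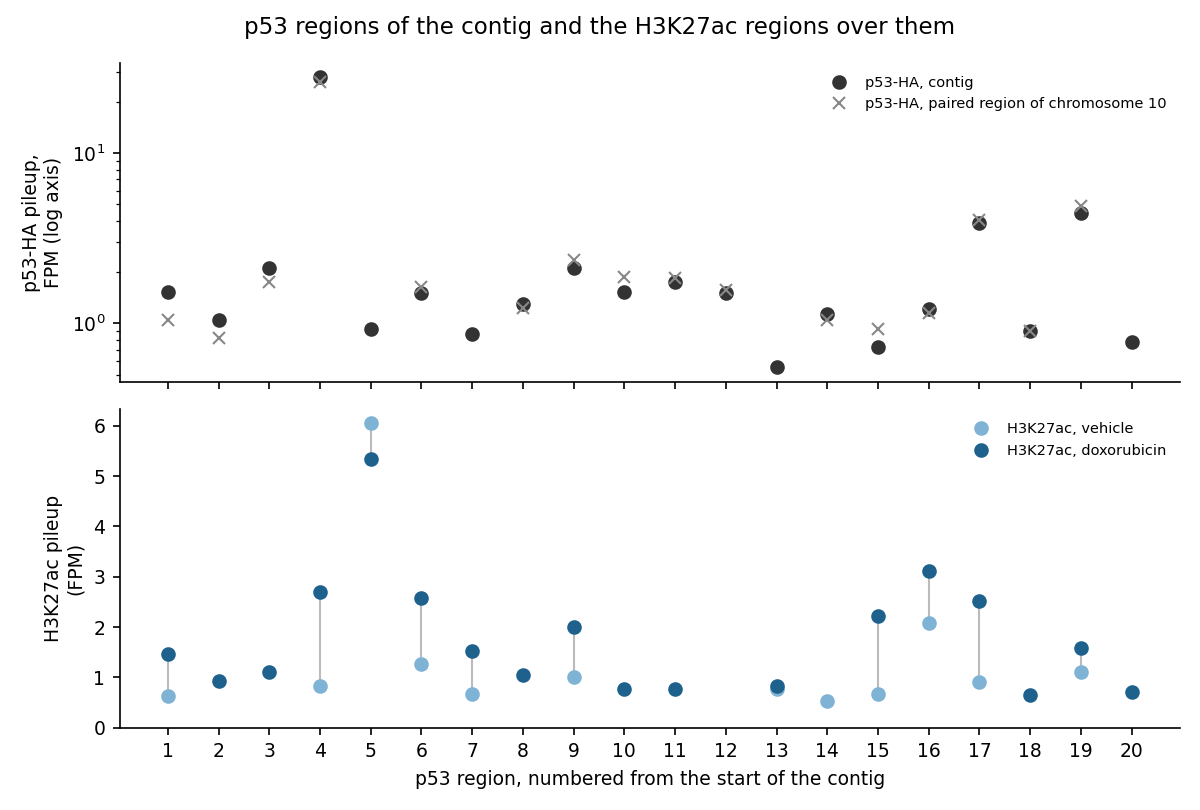
The 20 p53 regions in order along the contig (horizontal axis), with the p53 pileup in FPM on the contig and on the paired chromosome 10 region above (log axis) and the H3K27ac pileup in FPM below. The 4th region stands highest for p53, and a missing H3K27ac point means that no region was called.

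Partners on chromosome 10 were chained for 16 of the 20 p53 regions. The partner's pileup was 0.68 to 1.27 times that of the contig region, with a median of 1.02. For the 4 without a partner, the nearest chained pair puts one by Nodal, one in Cdh23 and one in Sh3rf3, and the last, at 1436777 to 1437042 with H3K27ac pileups of 14 and 26, 8287 bp from the long non-coding gene Gm26947.

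As a check of the libraries, H3K27ac regions were called within 1000 bp of all 8 embryonic stem cell marker genes examined in both treatments. Of 5 fibroblast genes, 1 had a region after vehicle and 4 after doxorubicin, all with a fold enrichment of at most 4.31. p53 regions were called at Cdkn1a, with a fold enrichment of 64.2, and at Mdm2, with 17.9. Of 7 genes known as targets of Dux, 0 had an H3K27ac region in either treatment, and 3 had an H3K9me3 region in both. Of these 3, Tdpoz4 also had a region in the untagged list, with a fold enrichment of 4.12. No share over all genes is given, so these counts do not set the Dux targets apart. Kept fragments per histone list ran from 14402634 to 20647895.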

How the data were processed

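The submitters' processing notes name Bowtie2 2.2.6 as the aligner, and peaks had been called with MACS2 2.2.5 at a q cutoff of 0.05 on pooled libraries, per the file headers. The histone lists had no control, and the p53 and untagged lists were called against the input. The deposited signal is the fragment pileup at a summit. For the p53 and untagged lists MACS had scaled it to the input's depth, and multiplying back to 2 times the input's fragments gave whole fragments for at least 99.9% of summits (within 0.0075 fragments). The deposited ratio is the fold enrichment over background, and the deposited q values are −log10. Positions and lengths, other than these values, were deposited in bp.

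All summits of 1 interval were joined into 1 region with the values of its highest summit. Regions sharing 1 bp were counterparts. Pileups were divided by kept fragments and multiplied by 1000000. Genes came from RefSeq (GRCm38.p6), without exons. Regions named in the text came from the 5 highest per histone list by fold enrichment, the 5 pairs with the highest and lowest ratios, the 3 highest regions of 1 treatment alone, and the p53 and untagged regions. Not every region under this rule is given, and results at 1 gene are not reported here. Members and lists were chosen with earlier results of these data known. Scripts (Python 3.11.15, pandas 2.3.3, matplotlib 3.10.9) were tested on simulated lists and against bedtools 2.31.1.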

Additional observations from a re-analysis of the deposited data

How the results depend on the processing

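No paired analysis was possible because both libraries of a group went into 1 list, which also prevented leaving out a library. Of 81 alternative values for 14 results, 46 stayed within 1.5 times the count or at the same median to 2 decimals. The following moved. H3K27ac doxorubicin-only regions, 143 as reported, numbered 48 at −log10 q of at least 5, 62 at a fold enrichment of at least 4, 27 at 1 FPM and 64 at equal numbers of top regions. Vehicle-only regions, 45 as reported, numbered 21, 25 and 8 at the first 3 of these. H3K9me3 doxorubicin-only regions, 36 as reported, numbered 22, 23, 11 and 15 under the same 4 settings and 21 after merging within 1000 bp, and vehicle-only regions, 5 as reported, numbered 8, 10, 3 and 17. The H3K27ac median log2 ratio was 0.022 scaled by the genome-wide median, 0.19 by all fragments, −0.0036 with fold enrichment (reversed), 0.24 with mean pileup, 0.13 at −log10 q of at least 5, 0.23 with 0.5 of the shorter region overlapping and 0.32 after merging. The H3K9me3 median was −0.086 scaled by the genome-wide median (reversed), 0.25 by all fragments, 0.20 with fold enrichment, 0.23 with mean pileup and 0.28 at −log10 q of at least 5. p53 regions with vehicle H3K27ac numbered 5 at 1 FPM. The H3K27ac median at p53 regions was 0.87 scaled by the genome-wide median, 0.82 with fold enrichment and 0.56 with mean pileup. Of the 28 units of the evenly spaced series, 8, 13 and 2 passed −log10 q of at least 5, fold enrichment of at least 4 and 1 FPM. Alternatives for the series, the chain (186 to 286 pairs) and the p53 median were chosen after seeing the data. The causes were not tested, apart from stricter thresholds leaving fewer regions.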
